A study of Homo sapiens with 9 samples.

Results

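NRXN2, NRXN3, NLGN1, NLGN2, SHANK2, DLGAP1, NEFL, NEFM and NEFH are 9 genes best known from neurons, and their RNA was followed here in spheroids of a prostate cancer cell line. They were taken by their symbols from the deposited gene tables, where they are 9 of 27111 genes, and all 9 passed the filter on low counts, as did 17108 genes in all. PC3 is a human cell line from a bone metastasis of prostate cancer that grows without androgen. It was infected with lentiviral particles carrying the pSIN vector alone (Empty), the long isoform of NF-YA (NF-YAl) or the short isoform (NF-YAs), the inserts being the murine sequences, and stable lines were selected with puromycin, so the Empty controls carried the vector and the selection too. NF-YA is the subunit that gives the transcription factor NF-Y its sequence specificity for the CCAAT box, and its isoforms differ by the inclusion of exon 3. Each library came from pooled multicellular tumor spheroids (MTSs) grown with Matrigel, with 3 libraries per line from independent experiments, and each line is 1 transduced population, so a difference between lines cannot be told apart from one between populations. Libraries carry the letters A, B and C, with D in place of C in the NF-YAl line.

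At a synapse, neurexins on the presynaptic membrane bind neuroligins on the postsynaptic one, and these contacts align both sides. Under the postsynaptic membrane, SHANK proteins and the guanylate kinase-associated proteins of the DLGAP family link receptors and adhesion molecules to the actin cytoskeleton. Neurofilaments are the intermediate filaments of axons, built from a light (NEFL), a medium (NEFM) and a heavy (NEFH) chain, and several of these genes are also transcribed in epithelial and neuroendocrine tumor cells.

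The libraries held 18076979 to 27163976 expected counts, and 20116 to 20756 genes had counts above 0, so genes under about 20 counts carry a wide counting error. NFYA served to check that both lines held more RNA of this gene than Empty. It had 91.8 ± 4.24 CPM (counts scaled to library size, mean ± SD, n = 3) in Empty. Its level was 341 ± 49.3 CPM with NF-YAl and 261 ± 5.71 CPM with NF-YAs (log2FC 1.89 and 1.51 against Empty, adjusted p = 6.41e-07 and 2.21e-06). A gene total does not separate the long from the short isoform. Which line carried which isoform was taken from the sample labels and was not tested. The counts were made on human transcripts, so the reads of the murine inserts cannot be told apart from those of the endogenous gene. NF-YAl D stood apart in one respect. For genes with at least 50 counts in every library, its TPM (transcript level per length, scaled to the same total in each library) per CPM was 1.45 times the mean of the libraries, against 0.821 to 1.11 in the others, and the top gene by TPM, the short 7SL RNA gene RN7SL2, was at 47363 TPM in NF-YAl D and at 108060 to 162923 in the others. Differences between groups were tested on counts, and TPM served to set genes side by side within a library.

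Their levels per length spread widely, and NEFL stood far above the rest. On the TPM scale, in Empty, NEFL was at 145 ± 13.9 TPM, NLGN2 at 15.7 ± 4.11, SHANK2 at 1.97 ± 0.350, NRXN3 at 0.870 ± 0.165, NRXN2 at 0.647 ± 0.146, NLGN1 at 0.587 ± 0.0666, NEFM at 0.270 ± 0.121, NEFH at 0.130 ± 0.123 and DLGAP1 at 0.0800 ± 0.0400 (SD, n = 3). The ranges over the Empty libraries overlapped for NRXN3 and NRXN2, NRXN2 and NLGN1, NEFM and NEFH, and NEFH and DLGAP1. Within each Empty library NRXN3 was nevertheless above NRXN2, and NEFM above NEFH. In NF-YAl the order of mean TPM was NEFL (75.7 ± 20.4), NLGN2 (19.4 ± 2.50), NLGN1 (2.65 ± 0.157), NRXN3 (1.08 ± 0.416), SHANK2 (0.923 ± 0.275), NEFM (0.193 ± 0.146), DLGAP1 (0.163 ± 0.0808), NEFH (0.157 ± 0.0451) and NRXN2 (0.0667 ± 0.0306). NLGN1 thus passed SHANK2 and both neurexins there, while the ranges of NRXN3 and SHANK2 overlapped, as did those of NEFM, DLGAP1 and NEFH, and of NRXN2 with NEFM and DLGAP1. In NF-YAs it was NEFL (141 ± 21.5), NLGN2 (16.6 ± 1.35), SHANK2 (2.02 ± 0.125), NRXN3 (1.89 ± 0.322), NLGN1 (1.34 ± 0.275), NRXN2 (0.643 ± 0.0839), DLGAP1 (0.393 ± 0.0874), NEFM (0.230 ± 0.131) and NEFH (0.203 ± 0.110), where the ranges of SHANK2 and NRXN3, of NRXN3 and NLGN1, of DLGAP1 and NEFM, and of NEFM and NEFH overlapped. NEFL ranked 509 to 589 of all genes by TPM in the Empty libraries, 1169 to 1464 in NF-YAl and 549 to 684 in NF-YAs. NLGN2 ranked 4438 to 6835 over the 9 libraries.

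**Figure D1:**
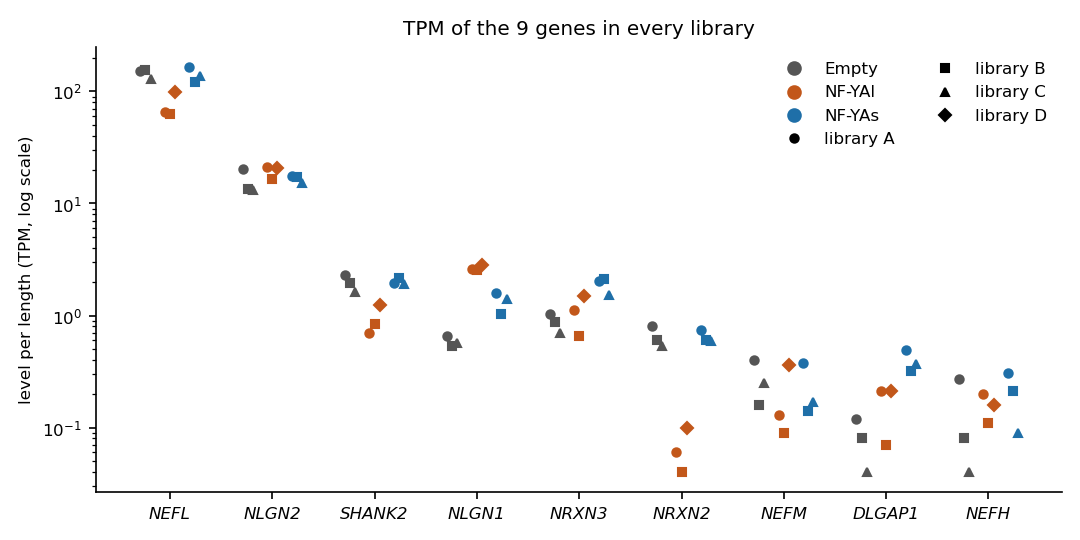
TPM of each gene (log scale) in the 9 libraries, coloured by line and shaped by library letter, with genes ordered by their mean. NEFL lay far above NEFM and NEFH in every library, and NRXN2 fell to 0.04 to 0.10 TPM in NF-YAl.

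A gene was called changed when edgeR's quasi-likelihood test gave an adjusted p under 0.01 over all tested genes and a |log2FC| above 1. In NF-YAl against Empty, 4 of the 9 genes were called, 1 higher (NLGN1) and 3 lower (NRXN2, SHANK2 and NEFL), where 8.27% of all tested genes were called, 4.76% higher and 3.50% lower. In NF-YAs against Empty, 2 were called, both higher (NLGN1 and DLGAP1), against 9.34% of all tested genes, 5.44% higher and 3.90% lower. In NF-YAl against NF-YAs, 5 were called, all lower in NF-YAl (NRXN2, NRXN3, SHANK2, DLGAP1 and NEFL), against 4.61% of all tested genes, 1.74% higher and 2.86% lower. The libraries of both groups did not overlap in CPM for 4, 3 and 6 of the 9 genes in these comparisons, where 42.4%, 56.4% and 39.5% of tested genes did not overlap. An adjusted p under 0.01 at any fold was reached by 4, 3 and 5 of them, against 19.6%, 22.6% and 11.0% of tested genes. The median log2FC of the 9 genes was -0.05, -0.07 and -1.01, beside 0.01, -0.00 and 0.02 for all tested genes. In bulk libraries fewer cells with a transcript and less of it per cell cannot be told apart. The first 2 comparisons share the Empty libraries, and the third shares the libraries of each line with one of them. The 9 genes were chosen with earlier results of these data known, so their counts beside those of all tested genes are a description only.

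**Figure D2:**
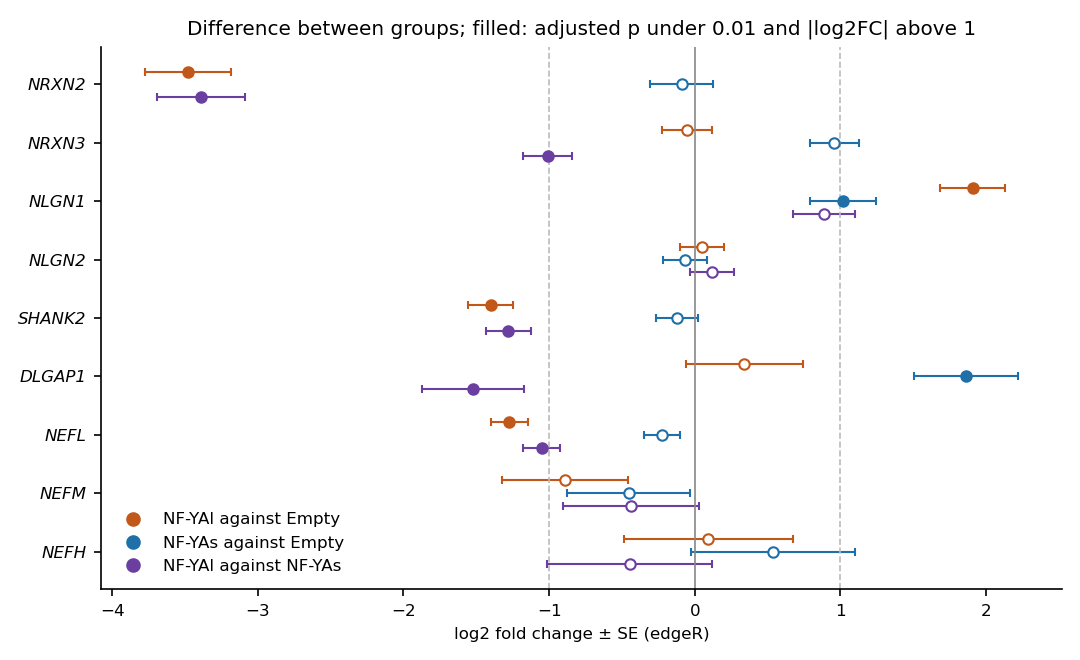
log2 fold change ± SE of the 9 genes in the 3 comparisons, from the fit over all libraries; filled points were called and dashed lines mark a |log2FC| of 1. NRXN2, SHANK2 and NEFL were lower in NF-YAl than in both other lines, and NLGN1 was called higher in both lines than in Empty.

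NRXN2, a presynaptic neurexin, showed the largest change of the 9 genes. It lies on the minus strand of chromosome 11 of GRCh37, from 64373646 to 64490669. Its counts were 51, 52 and 48 in Empty A, B and C, 3, 4 and 5 in NF-YAl A, B and D, and 37, 37 and 41 in NF-YAs A, B and C. Every NF-YAl library lay far below every other library, and Empty and NF-YAs overlapped in CPM (1.89 to 2.14 and 1.84 to 1.99). NRXN2 was lower by a fold of 11.1 in NF-YAl compared with Empty (log2FC -3.48 ± 0.30, SE; adjusted p = 7.15e-06) and 10.5-fold lower than in NF-YAs (-3.39 ± 0.30, adjusted p = 3.10e-05). Summed over libraries, 12 counts stood against 151 in Empty, and the ratio corrected for depth was 10.3 with an exact 95% Poisson interval of 5.72 to 20.4 that covers counting error only. NF-YAs did not differ from Empty by the test (-0.09 ± 0.22, adjusted p = 0.780). Both calls held in each of the 16 alternatives that tested the gene, with a log2FC against Empty of -3.63 to -2.16. The 100 tested genes nearest to NRXN2 on chromosome 11 had a median log2FC of -0.18 in NF-YAl against Empty, with quartiles of -0.35 and 0.01.

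Neurexin genes give long alpha and short beta proteins from separate promoters. Of the 3 NRXN2 transcripts listed, the beta transcript NM_138734.2 (3535 nt) held 94.1 ± 0.447 percent of the gene's TPM in Empty, 81.0 ± 16.7 with NF-YAl and 87.7 ± 0.840 with NF-YAs (SD, n = 3), and the alpha transcript NM_138732.2 (6413 nt) held the rest. The counts assigned to the beta transcript were 45.7, 47.0 and 42.7 for Empty, 3, 2.16 and 3.07 with NF-YAl and 29.4, 28.9 and 33.0 with NF-YAs. On the transcript table this transcript was lower in NF-YAl compared with Empty (log2FC -3.85 ± 0.48, adjusted p = 0.00382) and missed the threshold against NF-YAs (-3.58 ± 0.48, adjusted p = 0.0114). The alpha transcript stayed under 9 counts in every library and was not tested. The NF-YAl shares rest on 3 to 5 counts a library. Over the 9 genes, 11 of 28 listed transcripts were tested. In NF-YAl against Empty 4 were called, 1 higher (NLGN1) and 3 lower (NRXN2, SHANK2 and NEFL), against 1.76% of all tested transcripts, 0.845% higher and 0.914% lower. In NF-YAl against NF-YAs 1 was called, lower (NEFL), against 0.361%, of which 0.130% higher and 0.231% lower. In NF-YAs against Empty edgeR called 0 and DESeq2 1, with 2 at an unadjusted p under 0.05, against 2.08% of all tested transcripts, 1.13% higher and 0.949% lower. These counts rest on single libraries, with 0 left in NF-YAl against Empty without Empty C and 0 in NF-YAl against NF-YAs whichever library was left out.

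NRXN3, the other neurexin of the set, had its highest level in NF-YAs. It spans 78636716 to 80334634 on the plus strand of chromosome 14. It had 7.0, 7.75 and 6.30 CPM in Empty A, B and C, 8.06, 5.60 and 6.70 in NF-YAl A, B and D, and 13.3, 15.7 and 11.9 in NF-YAs A, B and C. The 3 NF-YAs libraries were above all others, and those of Empty and NF-YAl overlapped. Against Empty the difference had an adjusted p of 0.000931 but a log2FC of 0.96 ± 0.17, just under the limit of 1, so it was not called. It was called without Empty B (1.04, adjusted p = 0.00292) or without NF-YAs C (1.04, adjusted p = 0.00231). NF-YAl was 2.01-fold below NF-YAs (log2FC -1.01 ± 0.17, adjusted p = 0.00152), and this call was lost without NF-YAl B (-0.89, adjusted p = 0.00721) or without NF-YAs B (-0.90, adjusted p = 0.0109), with the effective length offset (-0.99, adjusted p = 0.00176) and with limma on log2(TPM + 0.1) (-0.81, adjusted p = 0.198). NF-YAl and Empty differed by a log2FC of -0.05 ± 0.17. The 100 tested genes nearest to NRXN3 were themselves raised in NF-YAs against Empty, with a median log2FC of 0.41 (quartiles 0.13 and 0.62). Of these neighbours, 81.0% had a lower log2FC than NRXN3. Their median in NF-YAl against NF-YAs was -0.09. The ratio of NRXN3 to NRXN2 TPM within a library was 1.27 to 1.47 in Empty, 14.8 to 18.5 with NF-YAl and 2.58 to 3.52 with NF-YAs. These ranges did not overlap, and the exact two-sided permutation test gave p = 0.1 for each of the 3 comparisons, the smallest value that 3 against 3 allows. With NF-YAl the ratio divides by an NRXN2 level of 0.04 to 0.10 TPM, from 3 to 5 counts a library. The range of 14.8 to 18.5 thus understates its counting error.

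Of 7 NRXN3 transcripts listed, NM_001272020.1 (9193 nt) held most of the signal, with 92.8 ± 4.53 percent of the gene's TPM in Empty, 70.2 ± 2.89 with NF-YAl and 83.8 ± 4.05 with NF-YAs. Its share was below that of every Empty library in all 3 NF-YAl and all 3 NF-YAs libraries, and lower in NF-YAl than in NF-YAs (exact two-sided permutation p = 0.1, adjusted p = 0.360 over 18 tests, in each of the 3 comparisons), and the design cannot go below that p. The rest was spread unevenly over 4 transcripts. NM_138970.4 (8578 nt) was assigned 22.7 counts in NF-YAl A and 31.0 in NF-YAl D and 0 in the other 7 libraries, including NF-YAl B. edgeR called no NRXN3 transcript in the 3 comparisons, and NM_001272020.1 came closest in NF-YAl against NF-YAs (log2FC -1.24 ± 0.23, adjusted p = 0.0274).

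**Figure D3:**
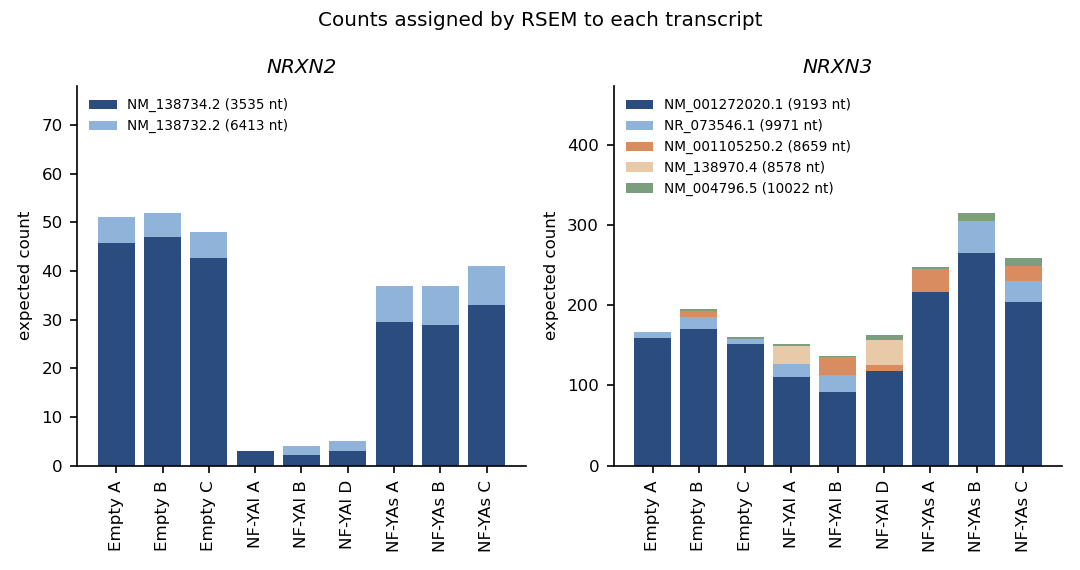
Expected counts that RSEM assigned to each transcript of NRXN2 and NRXN3 in the 9 libraries, stacked to the gene total. The NRXN2 bars of NF-YAl reach 3 to 5 counts, and the NRXN3 bars of NF-YAs are the tallest, with NM_001272020.1 holding most of each.

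NLGN1, a postsynaptic neuroligin found mainly at excitatory synapses, rose in both lines. It spans 173114074 to 174012162 of chromosome 3 (GRCh37, plus strand). It had 2.35, 2.46 and 2.72 CPM in Empty A, B and C, 9.97, 11.5 and 6.86 in NF-YAl A, B and D, and 5.49, 4.03 and 5.76 in NF-YAs A, B and C. The 3 groups did not overlap, with Empty lowest and NF-YAl highest. NLGN1 was 3.75-fold higher in NF-YAl than in Empty (log2FC 1.91 ± 0.22, adjusted p = 6.14e-05), a call kept in all 17 alternatives with a log2FC of 1.74 to 2.18. In NF-YAs it was 2.03-fold higher (1.02 ± 0.23, adjusted p = 0.00408). That call lies at the edge of both limits: it was lost without Empty A, B or C and without NF-YAs A or C, with a log2FC of 0.92 to 1.08 and an adjusted p of 0.0131 to 0.0220. It was also lost with limma on log2(TPM + 0.1) (1.05, adjusted p = 0.0273). Between the lines the difference of 0.89 ± 0.21 was not called (adjusted p = 0.0112), and it was called without NF-YAl D (1.08, adjusted p = 0.00126). The 100 tested genes nearest to NLGN1 had a median log2FC of 0.47 in NF-YAl (quartiles 0.16 and 0.87) and 0.10 in NF-YAs against Empty.

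NF-Y binds the CCAAT box, and the RefSeq table of promoter windows, each running from 250 bases before to 50 bases after a gene's start in GRCh38.p14, held 8 windows for 4 of the 9 genes. The motif CCAAT was searched on both strands (ATTGG is its reverse complement), with no other motif searched. It was present in 3 of these 8 windows, from NLGN1 and DLGAP1, and in 34.6% of all 34943 windows of 300 bases. These 3 windows are shown because they belong to the 2 genes called higher in NF-YAs and are those that hold the letters. Binding was not measured here, and a match is a description of the sequence only. The NLGN1 windows are on the plus strand, at chr3:173395702-173396001, where ATTGG begins at position -31 from the start, and at chr3:173397494-173397793, where it begins at -180. Capitals mark the motif.
NLGN1 window 1: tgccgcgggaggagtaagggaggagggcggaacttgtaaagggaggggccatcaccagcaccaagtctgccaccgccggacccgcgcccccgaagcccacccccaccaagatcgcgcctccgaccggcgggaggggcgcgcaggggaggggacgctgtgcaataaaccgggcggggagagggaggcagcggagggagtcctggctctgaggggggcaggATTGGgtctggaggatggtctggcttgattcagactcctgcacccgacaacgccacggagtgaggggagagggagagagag
NLGN1 window 2: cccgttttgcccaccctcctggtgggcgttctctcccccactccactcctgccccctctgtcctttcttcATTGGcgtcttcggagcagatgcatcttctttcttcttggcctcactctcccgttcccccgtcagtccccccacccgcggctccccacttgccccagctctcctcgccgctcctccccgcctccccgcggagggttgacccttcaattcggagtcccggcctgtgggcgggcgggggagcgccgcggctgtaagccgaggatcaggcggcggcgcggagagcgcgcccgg
The DLGAP1 window is on the minus strand at chr18:3874711-3875010, with CCAAT from position -46. Its GC content was 37.3%, against 68.3% and 69.3% in the NLGN1 windows.
DLGAP1 window 2: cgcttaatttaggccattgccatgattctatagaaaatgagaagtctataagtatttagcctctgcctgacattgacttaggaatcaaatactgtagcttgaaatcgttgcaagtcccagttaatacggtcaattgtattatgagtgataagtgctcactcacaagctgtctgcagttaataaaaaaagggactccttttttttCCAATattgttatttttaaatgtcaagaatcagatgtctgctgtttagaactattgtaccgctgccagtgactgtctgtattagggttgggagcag
The other DLGAP1 window, the 3 NRXN3 windows and the NLGN2 window did not hold these letters. No window was available for NRXN2, SHANK2, NEFL, NEFM or NEFH, so these genes were not searched.

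NLGN2, the neuroligin of inhibitory synapses, was not called in any comparison and had the highest TPM of the 6 synaptic genes among the 9. It spans 7308193 to 7323179 of chromosome 17 (GRCh37, plus strand). It had 68.6, 59.3 and 58.8 CPM in Empty A, B and C, 76.1, 70.3 and 47.0 in NF-YAl A, B and D, and 57.3, 62.6 and 58.2 in NF-YAs A, B and C. The groups overlapped, and NF-YAl D was the lowest library of all. Its log2FC was 0.05 ± 0.15 in NF-YAl and -0.07 ± 0.15 in NF-YAs against Empty. The sign changed with single libraries, as the first value was -0.08 without NF-YAl A and -0.02 without NF-YAl B, and the second was 0.01 without Empty A. The ratio of NLGN2 to NLGN1 TPM within a library was 23.1 to 31.0 in Empty, 6.52 to 8.16 with NF-YAl and 10.8 to 16.5 with NF-YAs, with no overlap between groups (exact two-sided permutation p = 0.1 in each comparison, the smallest possible).

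SHANK2, a master scaffold of the postsynaptic density, was lower in NF-YAl than in both other lines. It spans 70313959 to 70963623 on the minus strand of chromosome 11. It had 18, 19.9 and 16.7 CPM in Empty A, B and C, 5.89, 8.26 and 6.45 in NF-YAl A, B and D, and 14.8, 18.2 and 17.2 in NF-YAs A, B and C. All NF-YAl libraries were below all others, and Empty and NF-YAs overlapped. It was lower by a fold of 2.64 in NF-YAl compared with Empty (log2FC -1.40 ± 0.15, adjusted p = 3.84e-05) and 2.43-fold lower than in NF-YAs (-1.28 ± 0.15, adjusted p = 0.000177). NF-YAs against Empty gave -0.12 ± 0.15 (adjusted p = 0.557). Both calls held when any library was left out, with a log2FC of -1.56 to -1.30 against Empty and -1.44 to -1.18 against NF-YAs. Neither was called with limma on log2(TPM + 0.1) (-1.04 and -1.08, adjusted p = 0.0314 and 0.0416). All of its counts were assigned to NM_012309.4 (10528 nt), of 3 transcripts listed, and this transcript was called lower in NF-YAl too, compared with Empty (-1.40 ± 0.17, adjusted p = 0.00338). The 100 tested genes nearest to SHANK2 had a median log2FC of -0.12 in NF-YAl against Empty, with quartiles of -0.36 and 0.16.

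DLGAP1, which joins SHANK proteins to the scaffold PSD-95, was barely transcribed and rose in NF-YAs. It spans 3496030 to 4455307 on the minus strand of chromosome 18. Its counts were 11, 11 and 5 in Empty A, B and C, 11, 10 and 10 in NF-YAl A, B and D, and 24, 23 and 34 in NF-YAs A, B and C. The NF-YAs libraries were above all others, and Empty and NF-YAl overlapped. It was 3.64-fold higher in NF-YAs than in Empty (log2FC 1.86 ± 0.36, adjusted p = 0.00170), a call lost without Empty C (1.56, adjusted p = 0.0106) or without NF-YAs C (1.73, adjusted p = 0.0114). NF-YAl was 2.87-fold below NF-YAs (-1.52 ± 0.35, adjusted p = 0.00924). This call was kept in only 2 of 16 alternatives, with an adjusted p of 0.00916 to 0.129 over all of them, and was lost without any 1 of 8 libraries, all but Empty C. Of 9 transcripts listed, 5 had counts, and their shares differed widely between libraries of the same line. NM_001242761.1 (3599 nt) was assigned 8.69, 0 and 7.63 counts in NF-YAl A, B and D.

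NEFL was the most abundant of the 9 genes in every library and fell in NF-YAl. The light chain gene lies on the minus strand of chromosome 8 of GRCh37, from 24808468 to 24814235. It had 414, 556 and 472 CPM in Empty A, B and C, 194, 218 and 185 in NF-YAl A, B and D, and 439, 364 and 434 in NF-YAs A, B and C. The NF-YAl libraries were below all others, and Empty and NF-YAs overlapped. The gene was lower by a fold of 2.42 in NF-YAl compared with Empty (log2FC -1.27 ± 0.13, adjusted p = 1.98e-05), with -1.36 to -1.16 when a library was left out, and 2.07-fold lower than in NF-YAs (-1.05 ± 0.13, adjusted p = 0.000170). The second value is near the limit on fold and fell just short of it without NF-YAl D (adjusted p = 0.000256). With limma on log2(TPM + 0.1) neither was called (-0.96 and -0.92, adjusted p = 0.0193 and 0.0463). NF-YAs against Empty gave -0.22 ± 0.12 (adjusted p = 0.187). NEFL was also called on the transcript table in both comparisons, with its single transcript NM_006158.4 (3841 nt) at -1.26 ± 0.13 against Empty (adjusted p = 0.00190) and -1.05 ± 0.13 against NF-YAs (adjusted p = 0.00879).

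The partner chains of NEFL were close to the limit of detection. NEFM lies on the plus strand of chromosome 8, from 24771271 to 24776611, and NEFH on the plus strand of chromosome 22, from 29876207 to 29887379. NEFM had 21, 12 and 18 counts in Empty, 6, 6 and 13 with NF-YAl and 14, 7 and 9 with NF-YAs. NEFH had 17, 7 and 4 counts in Empty, 11, 9 and 7 with NF-YAl and 15, 12 and 6 with NF-YAs. All groups overlapped for both genes. None of their comparisons was called, with a log2FC for NEFM of -0.89 ± 0.43 in NF-YAl (adjusted p = 0.141) and -0.45 ± 0.42 in NF-YAs (adjusted p = 0.438) against Empty, and for NEFH of 0.09 ± 0.58 and 0.54 ± 0.56 (adjusted p = 0.926 and 0.492). With SEs of this size, small changes of NEFM and NEFH were not detectable at this depth. Within a library, NEFL TPM was 276 to 969 times that of NEFM and 326 to 3228 times that of NEFH.

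**Figure D4:**
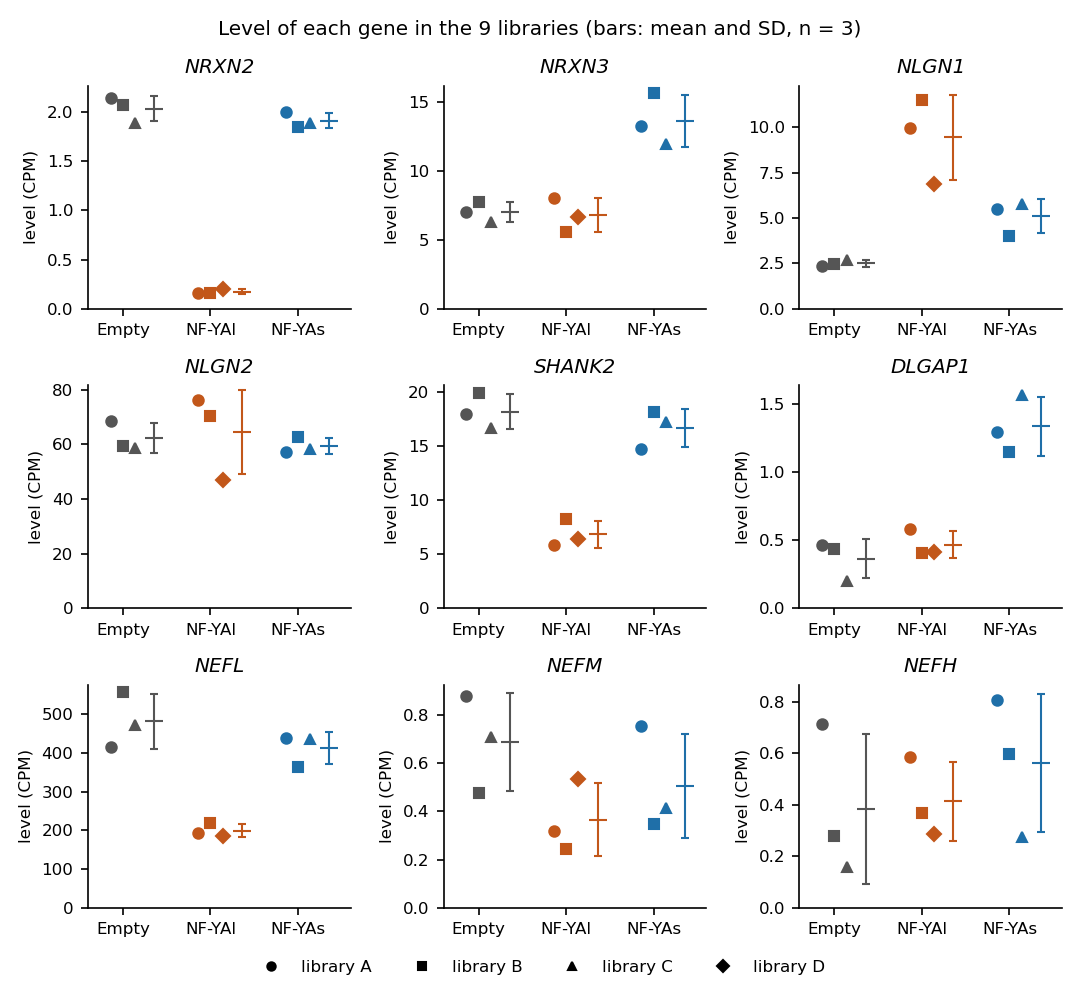
CPM of each gene in each library, with the mean and SD of each line (n = 3) to the right of its points; every axis starts at 0. The NF-YAl points lie below all others for NRXN2, SHANK2 and NEFL, and the NF-YAs points above all others for NRXN3 and DLGAP1.

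The annotation places no protein-coding gene over any of the 9 genes on either strand, but antisense RNA genes overlap 8 of them, NLGN2 being free. The library kit kept strand, and whether the counting used it is not given in the sources used here, so reads of such antisense transcripts where they share exons cannot be told apart from the gene's own.

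Neurexins and their extracellular partners rose more often than they fell. Of 37 genes listed, 25 were tested, the 4 neurexin and neuroligin genes above among them. In NF-YAl 8 were called higher and 1 lower than in Empty (median log2FC 0.61), and in NF-YAs edgeR and DESeq2 each called 9 higher and 0 lower (median 0.96), with 0 lower at an unadjusted p under 0.05 too. Over all tested genes 8.27% and 9.34% were called in these comparisons. This list and those below were chosen with earlier results of these data known, so their shares called are a description only. ADGRL2, a latrophilin receptor that binds teneurins and FLRT proteins, was 9.56-fold higher in NF-YAl (log2FC 3.26 ± 0.45, adjusted p = 0.000197) and 5.45-fold in NF-YAs (2.45 ± 0.46, adjusted p = 0.00134). C1QL3, a secreted C1q-like synaptic organiser, was 2.94-fold higher in NF-YAl, at 4.30 ± 0.426 CPM against 1.46 ± 0.256 in Empty. ADGRL3, another latrophilin, was 6.26-fold higher in NF-YAs than in Empty (2.65 ± 0.25, adjusted p = 1.22e-05) and higher than in NF-YAl (adjusted p = 8.02e-05 for a log2FC of -2.32 in NF-YAl against NF-YAs), with mean levels of 2.56, 3.19 and 16.0 CPM in Empty, NF-YAl and NF-YAs. LRRTM4, a postsynaptic partner of neurexins, was 5.23-fold higher in NF-YAs, at 2.49 ± 0.324 CPM. NRXN2 was the 1 gene of the list called lower in NF-YAl. The 9 calls in NF-YAl came to 5 without Empty C. Between the lines edgeR called 3 genes lower in NF-YAl (NRXN2, NRXN3 and ADGRL3) and 0 higher, as did DESeq2, with 3 higher at an unadjusted p under 0.05. Over all tested genes 2.86% were called lower and 1.74% higher in that comparison. Without NF-YAl D edgeR made 5 calls.

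NLGN3 and NLGN4X, the remaining neuroligins of the list, were not called. NLGN3 was at 2.18, 3.38 and 2.16 mean CPM and NLGN4X at 4.48, 10.9 and 7.07 in Empty, NF-YAl and NF-YAs. The adjusted p in NF-YAl against Empty was 0.181 and 0.123.

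Among 41 other synapse-organising adhesion molecules, 34 were tested, and 6 rose and 2 fell in NF-YAl, and 11 rose and 2 fell in NF-YAs (medians 0.50 and 0.68), where over all tested genes 4.76% and 5.44% rose and 3.50% and 3.90% fell. SLITRK5 was 2.66-fold higher in NF-YAl (log2FC 1.41 ± 0.16, adjusted p = 4.97e-05). IL1RAPL1, an interleukin receptor relative that binds presynaptic PTPRD, was lower by a fold of 3.28 in NF-YAl compared with Empty (-1.71 ± 0.21, adjusted p = 7.59e-05) and 3.93-fold lower than in NF-YAs. CADM2, a synaptic cell adhesion molecule of the nectin-like family, was 3.26-fold lower in NF-YAs than in Empty (-1.70 ± 0.13, adjusted p = 2.40e-06), at 8.12 ± 0.629 against 26.5 ± 1.87 CPM. CADM1, of the same family, had 0 counts in all Empty libraries, 2 to 3 in NF-YAl and 101 to 221 in NF-YAs. Against a floor of 3 counts in each library, the NF-YAs level of CADM1 was at least 64.1-fold higher than in Empty.

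The other SHANK genes differed in direction. SHANK1, like SHANK2, was lower in NF-YAl than in both other lines, with 7.87 ± 2.74 CPM in NF-YAl against 26.5 ± 4.67 in Empty and 39.8 ± 4.27 in NF-YAs (log2FC -1.74 ± 0.22 and -2.33 ± 0.22, adjusted p = 9.34e-05 and 3.83e-05). SHANK3 was higher than Empty in both lines, at 14.7 ± 3.52 CPM in NF-YAl and 16.5 ± 2.68 in NF-YAs against 6.29 ± 0.743 (1.22 ± 0.19, adjusted p = 0.000415, and 1.39 ± 0.19, adjusted p = 0.000143). The lines did not differ in SHANK3 by the test (-0.17, adjusted p = 0.533). Of 56 synaptic scaffold genes, 53 were tested, and 10 rose and 3 fell in NF-YAl (median 0.08), and 8 rose and 1 fell in NF-YAs (median 0.24), that is 24.5% and 17.0% of them called, against 8.27% and 9.34% of all tested genes. The 13 calls in NF-YAl came to 8 without NF-YAl A.

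RIMS1, which encodes a protein of the presynaptic active zone, had 0 to 1 counts in Empty, 57 to 94 with NF-YAl and 23 to 39 with NF-YAs (adjusted p = 7.39e-06 and 3.25e-05). RIMS2, its paralog, was 11.5-fold higher in NF-YAl (log2FC 3.52 ± 0.34, adjusted p = 1.69e-05) and 8.60-fold in NF-YAs (3.10 ± 0.35, adjusted p = 3.75e-05). BSN, which encodes bassoon, was 3.50-fold higher in NF-YAl and 2.46-fold in NF-YAs, from 6.02 ± 1.27 CPM in Empty. The liprin gene PPFIA4 was 2.46-fold lower in NF-YAs than in Empty (-1.30 ± 0.17, adjusted p = 9.50e-05). Other central scaffolds were close to Empty: DLG4, which encodes PSD-95, had a log2FC of -0.06 in NF-YAl and 0.10 in NF-YAs, HOMER1 of 0.06 and -0.25, and DLGAP4 of -0.25 and -0.12, none with an adjusted p under 0.1.

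Of 17 intermediate filament genes outside the keratins, 14 were tested. In NF-YAl edgeR and DESeq2 each called 3 lower and 0 higher than Empty (median log2FC -0.17), with 2 higher at an unadjusted p under 0.05. In NF-YAs both called 0 (median 0.11), with 4 higher and 2 lower at an unadjusted p under 0.05. Over all tested genes edgeR called 3.50% lower and 4.76% higher in NF-YAl, and 3.90% lower and 5.44% higher in NF-YAs. With 14 genes tested, few or no calls would be found at such shares. The 3 lower in NF-YAl were NEFL, BFSP1, a lens filament gene, and PRPH, the peripheral neuron filament peripherin. BFSP1 was 2.39-fold lower (-1.26 ± 0.21, adjusted p = 0.000607) and PRPH 2.35-fold lower (-1.23 ± 0.20, adjusted p = 0.000690), at 2.03 ± 0.270 against 4.76 ± 0.827 CPM. VIM, the mesenchymal filament vimentin, was at 936, 1135 and 1368 mean CPM in Empty, NF-YAl and NF-YAs, with a log2FC of 0.28 (adjusted p = 0.150) and 0.55 (adjusted p = 0.00894) that did not reach the limit on fold. NES, which encodes nestin, was at 150.2 mean CPM in Empty and had a log2FC of -0.15 in NF-YAl and -0.07 in NF-YAs. Against NF-YAs, 2 genes of the list were called lower in NF-YAl (NEFL and BFSP1), and 1 without NF-YAl D. Between the lines 2.86% of all tested genes were called lower in NF-YAl.

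Of 32 genes of the neuronal microtubule and axonal cytoskeleton, 25 were tested, and edgeR called 5 higher in NF-YAl and 9 in NF-YAs (medians 0.30 and 0.36), where 4.76% and 5.44% of all tested genes were called higher. Both edgeR and DESeq2 called 0 lower than Empty, with 3 and 2 lower at an unadjusted p under 0.05. MAP2, a dendritic microtubule-associated protein, was 5.65-fold higher in NF-YAl (log2FC 2.50 ± 0.29, adjusted p = 5.98e-05) and 7.82-fold in NF-YAs (2.97 ± 0.29, adjusted p = 1.47e-05). The kinesin motor gene KIF5C rose 4.09-fold in NF-YAl, from 17.8 ± 2.77 to 72.7 ± 4.58 CPM, and 2.19-fold in NF-YAs. MAPT, which encodes tau, rose 3.54-fold in NF-YAl, from 10.6 ± 0.801 to 37.8 ± 9.18 CPM, and 2.22-fold in NF-YAs, to 23.6 ± 1.87 CPM. ANK2, an ankyrin of axons, rose 4.23-fold in NF-YAs (2.08 ± 0.17, adjusted p = 3.45e-06) and was lower in NF-YAl than in NF-YAs (-1.23 ± 0.16, adjusted p = 0.000275), the 1 gene of the list called between the lines. Of all tested genes 4.61% were called in that comparison.

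Of 40 genes of synaptic vesicle release, 31 were tested, and 2 rose and 2 fell in NF-YAl, and 5 rose and 2 fell in NF-YAs (medians 0.05 and -0.06), that is 12.9% and 22.6% of them called, against 8.27% and 9.34% of all tested genes. RAB3B, a vesicle GTPase, was 2.82-fold higher in NF-YAl (log2FC 1.49 ± 0.09, adjusted p = 6.39e-07) and 2.21-fold higher in NF-YAs (1.14 ± 0.09, adjusted p = 2.82e-06). The same 2 genes, SYN3 and SYT7, fell in both lines. SYN3, which encodes a synapsin of vesicles, had 380 to 480 counts in Empty, 0 to 5 with NF-YAl and 22 to 29 with NF-YAs (log2FC -7.12 ± 0.39 and -3.79 ± 0.28, adjusted p = 3.48e-07 and 2.28e-06), and TIMP3 lies within it on the opposite strand. SYT7, a calcium sensor of vesicle fusion, was lower in both lines, 3.44-fold in NF-YAl and 3.78-fold in NF-YAs, from 24.6 CPM in Empty. SYT1, the fast calcium sensor, was 2.50-fold higher in NF-YAs (1.32 ± 0.15, adjusted p = 4.00e-05). SLC17A7, a vesicular glutamate transporter, was 12.1-fold higher in NF-YAs (adjusted p = 4.41e-06), at 3.48 ± 0.355 against 0.283 ± 0.0738 CPM.

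**Figure D5:**
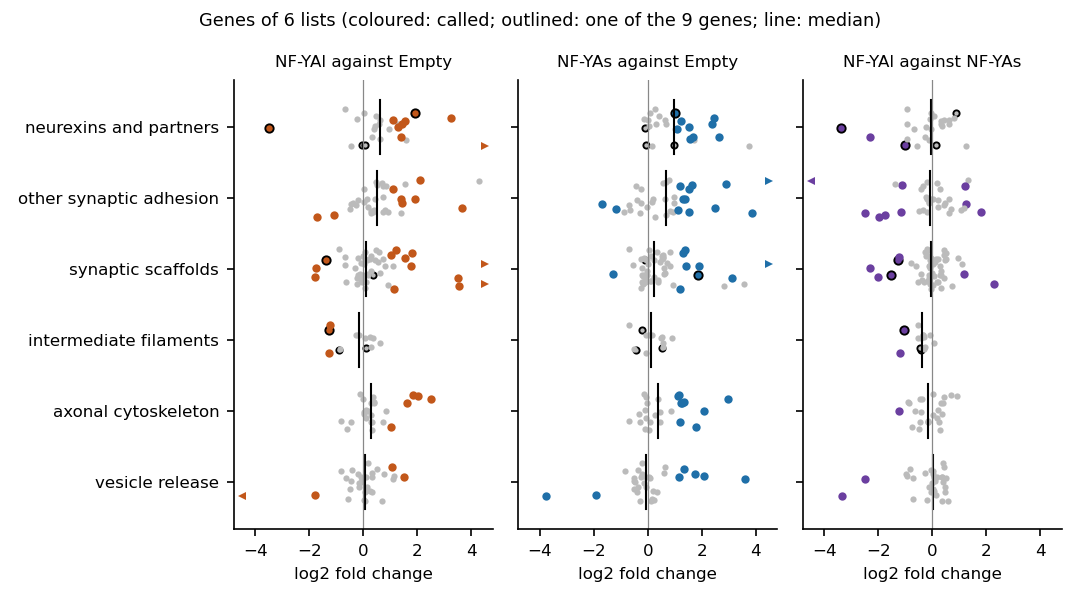
log2 fold change of every tested gene of 6 lists in the 3 comparisons; coloured points were called, outlined points are among the 9 genes, black lines are list medians, and triangles at the edge lie beyond 4.5. In the rows for intermediate filaments no point was called higher, and in the rows for the axonal cytoskeleton none was called lower than Empty.

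The cells were checked against markers. The epithelial keratins KRT8, KRT18 and KRT19 were at 70.4 to 569 TPM in all libraries, and KLK3, which encodes the prostate-specific antigen and is not made by PC3, was at 0 in all. The epithelial markers EPCAM and CDH1 were low, at 0.61 to 6.68 and 0.52 to 3.22 TPM over the 9 libraries. EPCAM was called higher than Empty in NF-YAl and NF-YAs (log2FC 2.16 and 1.46, edgeR adjusted p = 5.49e-05 and 0.000878). The summed TPM of the 9 epithelial and PC-3 markers was 1035 to 1295 in Empty, 662 to 1214 with NF-YAl and 761 to 846 with NF-YAs. The 1214 was NF-YAl D, whose TPM per CPM was 1.45 times the mean of the libraries. In mean CPM, KRT8 was at 286, 114 and 167 and KRT18 at 349, 261 and 248 in Empty, NF-YAl and NF-YAs. Of the 9 markers 8 were tested, and 2 were called higher and 1 lower in each line (KRT8 with NF-YAl, CDH1 with NF-YAs). Over all tested genes 8.27% were called in NF-YAl and 9.34% in NF-YAs against Empty. Of 12 neuron markers 5 were tested, and above 3 counts in any library there were 8 in Empty, 6 with NF-YAl and 5 with NF-YAs. The 8 in Empty include DCX and INA, which reached 3.01 and 4 counts there. GAD2 was at 0 in all 9 libraries, and SNAP25, STMN2, DCX and INA did not exceed 0.10 TPM. Higher were SYT1 at 1.57 to 6.7 TPM, GAD1 at 1.18 to 3.46 and RBFOX3 at 0.46 to 1.54. GAD1 was 2.17-fold lower in NF-YAl than in NF-YAs (log2FC -1.12 ± 0.22, edgeR adjusted p = 0.00383). GAP43, a growth cone marker, had 0 to 1 counts in Empty, 6 to 14 with NF-YAl and 1 to 3 with NF-YAs. The summed TPM of the neuron markers was 4.34 to 7.14 in Empty, 4.92 to 8.99 with NF-YAl and 10.4 to 13.0 with NF-YAs. The 8.99 was NF-YAl D again. In NF-YAl edgeR called 0 of the 5 tested and DESeq2 called 1 marker (3 at an unadjusted p under 0.05), beside 8.27% of all tested genes. In NF-YAs 2 were called higher (SYT1 and SLC17A7), beside 9.34% of all tested genes called. The summed TPM of the neuron markers was thus highest in NF-YAs, and SYT1, GAD1 and SLC17A7 were its largest parts there. Not every marker followed the sum. GAP43 was highest in NF-YAl, and ELAVL4 had 7 to 15 counts in NF-YAs against 19 to 22 in Empty. Of the 9 genes, NRXN3 and DLGAP1 were also highest in NF-YAs. NLGN1 was highest in NF-YAl, and NRXN2, SHANK2 and NEFL overlapped between NF-YAs and Empty. All libraries were of PC3 cells, and whether all or only part of the cells carried these transcripts was not tested.

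For the 3 genes with the highest mean TPM, the tested genes with the most similar profile were found by Pearson's r of log2(CPM + 0.5) over the 9 libraries, as a description. NEFL was closest to SMIM4, SPOCD1 and DNER (r = 0.990, 0.987 and 0.982), NLGN2 to NUTM2G, KDM6B and STAG3L3 (r = 0.981, 0.973 and 0.970), and SHANK2 to NRG2, NTSR1 and ST3GAL2 (r = 0.993, 0.989 and 0.987). Of the tested genes, 1.57% exceeded r = 0.9 with NEFL, 1.89% with SHANK2 and 0.210% with NLGN2. The libraries share 3 lines, so a step between lines alone gives a high r.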

How the data were processed

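RNA-seq of total RNA (500 ng per library, stranded kit) was deposited for 9 libraries of PC3 MTSs, 3 each of Empty, NF-YAl and NF-YAs, as named in the sample labels. The authors aligned reads to human hg19 (GRCh37) transcripts with Bowtie2 within RSEM and deposited, per gene and transcript, the expected count, which is not normalized, and the TPM, scaled by RSEM to 1 total per library and corrected for effective length. They also deposited the percent of a gene's TPM held by each transcript. Library totals and the precision they give stand in the report. Expected counts were rounded and tested in edgeR 4.0.16 (R 4.3.3) with filterByExpr, TMM scaling and 1 quasi-likelihood fit over the 9 libraries, with Benjamini-Hochberg adjustment over all 17108 tested genes or 34671 tested transcripts. The SE is |log2FC| over the square root of F. The p-values measure the spread between libraries, and replicate libraries differed by more than counting error (chi-square per gene 6.39 to 92.8). Ribosomal RNA took 2.66 to 7.71% of counts. The procedure was tested on simulated data. Shares and ratios were tested with exact two-sided permutation tests over libraries.

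The 9 genes and the 8 gene lists were chosen with earlier results of these data known. From each list up to 4 called genes per comparison and direction qualified to be named, by size of log2FC, given separate libraries and a mean of 2 CPM or more in the higher group, and the text names part of these. NLGN3, NLGN4X, DLG4, HOMER1, DLGAP4, VIM and NES, and the markers outside this rule, were named after their values were seen. The values of 1 marker are not reported here. Alternatives were DESeq2 1.42.0, no filter, scaling by relative log expression, a minimum of 10 counts in each library, a fit of 2 groups, the replicate letter as a block, an effective length offset, limma 3.58.1 on log2(TPM + 0.1), adjusted p under 0.05, no limit on fold, and leaving out each library. Leaving out libraries for the lists, and all alternatives for genes that are not among the 9, were added after seeing the data. Positions are from GENCODE on GRCh37 and promoter windows from RefSeq on GRCh38.p14; no coordinates were converted. Promoter windows matched 4 of the 9 symbols. Figures were drawn with matplotlib in Python.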

Additional observations from a re-analysis of the deposited data

How the results depend on the processing

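Over the 27 log2FC of the 9 genes, 396 of 445 alternative values kept both direction and side of the threshold, 32 lost the call, 4 gained it and 13 changed sign, the 13 being of genes not called. The genes called among the 9 in NF-YAl against Empty numbered 2 in place of 4 with limma on log2(TPM + 0.1), and 4 in every fit without 1 library. In NF-YAs against Empty they numbered 1 in place of 2 with limma on TPM or with at least 10 counts in every library, and 0 to 2 without 1 library. In NF-YAl against NF-YAs they numbered 3 in place of 5 with at least 10 counts or the effective length offset, 1 with limma on TPM, and 3 to 5 without 1 library. The filter of 10 counts removes genes among the 9, and for the other settings the cause was not tested. On the TPM scale the median of all genes shifted by 0.29, 0.17 and 0.12 (log2) in the 3 comparisons, and the percent of all called genes that were higher went from 57.6 to 78.4, from 58.3 to 71.2 and from 37.8 to 45.6.

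Signs changed in NF-YAl against Empty for NRXN3 (0.23 with limma on TPM, -0.19 to 0.0700 without 1 library), NLGN2 (-0.0828 to 0.24 without 1 library) and NEFH (-0.28 to 0.89). In NF-YAs against Empty limma on TPM gave 0.0053 for NRXN2, 0.11 for NLGN2 and 0.0445 for SHANK2, and leaving out 1 library gave -0.11 to 0.0117 for NLGN2. In NF-YAl against NF-YAs NLGN2 was at -0.0166 to 0.30 without 1 library.

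The replicate letters were not shown to pair the libraries: the correlation of deviations from the group means was over 0.1 in 5 of 7 same-letter pairs (mean 0.116, -0.07 to 0.315) and in 1 of 20 pairs of different letters (mean -0.04). The same-letter values lean towards shared letters as a hint from the data, but not every pair did so, and NF-YAl A and NF-YAs A were at -0.07. With the letter as a replicate block, called transcripts of the 9 genes numbered 0 in place of 4 in NF-YAl against Empty and 0 in place of 1 in NF-YAl against NF-YAs. In the latter comparison, neurexin partners called went from 3 to 6 and intermediate filament genes from 2 to 1, and NLGN1 gained the call (1.16) while DLGAP1 and NEFL lost it (-1.47 and -0.99).

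Without 1 library, called transcripts numbered 0 to 3 in NF-YAl against Empty and 0 to 0 in NF-YAl against NF-YAs, where DESeq2 gave 4 and no filter 0, and DESeq2 gave 1 in NF-YAs against Empty. In NF-YAl against Empty, calls without 1 library ranged from 5 to 11 for neurexin partners, 8 to 15 for scaffolds and 0 to 1 for neuron markers, where DESeq2 and no filter gave 1. In NF-YAl against NF-YAs they ranged from 2 to 5 for neurexin partners, 1 to 2 for intermediate filaments, 1 to 3 for the axonal cytoskeleton, 1 to 2 for neuron markers and 1 to 2 for epithelial markers. Of 1246 alternative values for 51 genes named or qualified from the lists, 1184 kept direction and call and 62 lost the call. Depth limits DLGAP1, NEFM, NEFH and NRXN2 in NF-YAl.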
